A study of Mus musculus with 37 samples.

Results

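RNA sequencing of cardiac fibroblasts (CFs) was used to compare directly the effects of 2 myocyte conditioned media (MCndM) at 24 h. AMP MCndM came from cardiomyocytes to which AMP had been added, and ENPP1+ATP MCndM came from cardiomyocytes that received the ectonucleotidase ENPP1 together with its substrate ATP. The comparison rests on 4 libraries, 2 per medium, chosen by their labels out of 37 samples in the series, of which 20 are CF libraries covering 5 media (vehicle, ENPP1, ATP, ENPP1+ATP and AMP) at 24 h and 48 h. All CFs were immortalized wild-type mouse cells of the C57BL/6 strain, seeded at low density, kept without serum for 24 h and then given MCndM for 24 or 48 h. The medium donors were neonatal rat ventricular myocytes (NRVMs). The labels do not give the amounts of AMP, ATP or ENPP1, nor say whether replicates came from separate cultures or separate batches of medium, so that p-values measure the spread between these libraries, which may be technical. The study describes the SV40 antigen as its means of immortalizing CFs. As background, the large T antigen of this virus binds the p53 protein. Its presence or effect was not measured here.

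ENPP1 is a membrane enzyme that splits extracellular ATP into AMP and pyrophosphate, so AMP is the product that both treatments bring to the myocytes, either added as such or made from ATP. Cells read their surroundings within minutes through immediate early genes, whose transcription factors of the FOS, JUN and EGR families are switched on by growth factor and stress kinases. Fibroblasts also make and remodel the collagen-rich extracellular matrix (ECM) of the heart, and p53 drives genes of cell cycle arrest and apoptosis when DNA or nucleotide pools are disturbed.

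The total counts were 39808854 and 74110869 for AMP MCndM and 39672441 and 43290297 for ENPP1+ATP MCndM, within the range of 32184799 to 115824659 over all CF libraries. Replicate 1 of AMP MCndM stood apart from the other 3 libraries on the fifth principal component of all CF libraries, with a score of 52.2 against scores of -20.9, -24.4 and -20.6. Mitochondrial ribosomal RNA took 1.47% and 0.426% of the counts in the AMP libraries and 0.559% and 1.10% in the ENPP1+ATP libraries, so that this share varied within each medium and the media overlapped. Of 15 fibroblast markers, 10 exceeded 10 CPM (the counts-per-million scale, which corrects for library size) in all 4 libraries, among them Col1a1, Vim and Fn1. Thy1 and Lum, which are also used to define fibroblasts, were below 1 CPM throughout.

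With AMP MCndM, 465 genes were higher (2.60% of the 17879 genes tested) and 653 were lower (3.65%) than with ENPP1+ATP MCndM at an adjusted p under 0.05, 6.25% in all. The differences were small. Their median absolute log2 fold change was 0.288, and 908 of the 1118 genes differed by less than 1.5-fold. An absolute log2 fold change of 1 or more was reached by 109 genes, of which 100 had a mean log2 CPM under 2, so the large differences lay mostly in genes with few reads. Among the gene lists, those with the most calls upward were immediate early genes (18 of 31), ATF4 targets (15 of 49) and p53 feedback and arrest targets (15 of 38), and those with the most calls downward were matrix glycoproteins and proteoglycans (17 of 48) and collagens (8 of 30). The count of calls depended on single libraries: without replicate 1 of ENPP1+ATP MCndM 92 genes were higher and 163 lower, without its replicate 2 these counts were 203 and 326, without replicate 1 of AMP MCndM 313 and 409, and without its replicate 2 389 and 794. None of the 1118 differences changed sign in any of these fits. For all 1118 the CPM values of the compared media did not overlap, so leaving out a library left little room for a change of sign.

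**Figure D1:**
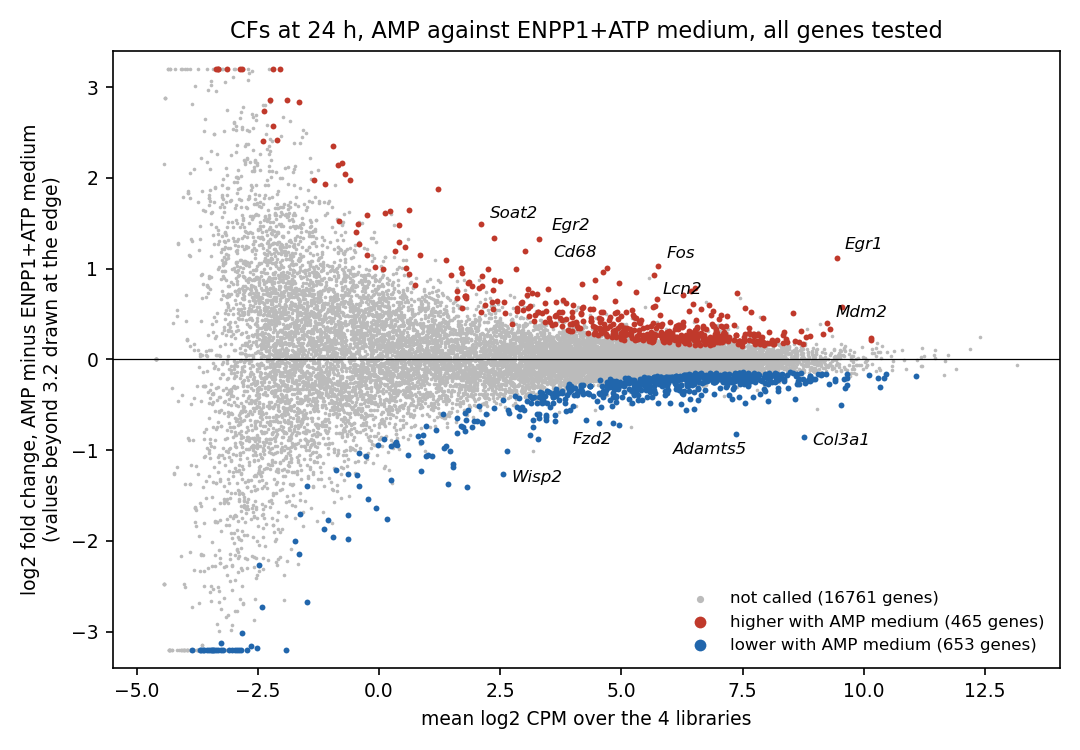
Each point is a gene tested, with its mean log2 CPM over the 4 libraries on the x axis and its log2 fold change, AMP minus ENPP1+ATP MCndM, on the y axis. The 465 genes called higher are red and the 653 called lower are blue, most of them within 1 log2 unit of no change, and the differences beyond 2 log2 units lie at low levels.

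Immediate early genes were the list in which the largest share of members rose. Of 31 tested members, 18 were higher with AMP MCndM and 0 were lower, with a median log2 fold change of 0.41 over the list against -0.00089 over all genes tested. At an unadjusted p under 0.05, 24 members were higher and 1 lower, and DESeq2 called 18 higher and 1 lower. Fos, which encodes a subunit of the AP-1 transcription factor, was at 85.5 and 69.0 CPM in the AMP libraries, 39.2 and 36.6 CPM in the ENPP1+ATP libraries and 2.87 and 3.53 CPM in the vehicle libraries. Both AMP libraries thus exceeded both ENPP1+ATP libraries, and these exceeded vehicle. The difference between AMP and ENPP1+ATP MCndM was a log2 fold change of 1.03 ± 0.12 (SE, n = 2 libraries per medium; adjusted p = 2.17e-05). Its paralog Fosb was at 31.8 and 27.6 CPM against 16.2 and 16.2 CPM, with 2.38 and 2.498 CPM in vehicle. Here too the groups did not overlap (0.87 ± 0.14, adjusted p = 0.00041). Egr2, a zinc finger transcription factor, was at 18.7 and 12.7 CPM with AMP MCndM and 6.34 and 6.11 CPM with ENPP1+ATP MCndM (1.33 ± 0.20, adjusted p = 0.00029).

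Egr1, the growth factor-induced relative of Egr2, was at 1115 and 941 CPM in the AMP libraries, 459 and 486 CPM in the ENPP1+ATP libraries and 77.6 and 74.3 CPM in the vehicle libraries, so that both media were far above vehicle and AMP MCndM was the higher of them (1.12 ± 0.17, adjusted p = 0.0045). Among the list's other members, the AP-1 subunits Fosl1 (0.78), Junb (0.74), Jun (0.51) and Jund (0.26) rose, as did Ier2 (0.75) and Ier3 (0.52). Dusp4, on the same list, a phosphatase that switches off MAP kinases, was at 62.7 and 63.6 CPM against 41.8 and 42.2 CPM (0.59 ± 0.07, adjusted p = 1.64e-05), and Dusp6 differed by 0.41. Etv4, an ETS transcription factor that responds to ERK signaling and was not on the list, was at 32.8 and 36.2 CPM against 18.1 and 17.3 CPM (0.97 ± 0.14, adjusted p = 0.00019). The count of immediate early genes that rose was 12 without replicate 1 of ENPP1+ATP MCndM and 16 to 19 without each of the other libraries. Fos, Fosb, Egr2, Dusp4 and Etv4 kept their calls in all 9 alternative fits. Egr1 (adjusted p = 0.060) and Junb (0.057) lost their calls without replicate 1 of ENPP1+ATP MCndM. Jund (adjusted p = 0.17) and Dusp6 (0.052) lost their calls without replicate 1 of AMP MCndM. Jund (adjusted p = 0.14) and Dusp6 (0.075) lost their calls without replicate 2 of ENPP1+ATP MCndM.

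Because these genes moved together, the bases before their starts are shown for Fos, Fosb, Junb and Egr2, the members with a large difference for which RefSeq (GRCm38.p6) promoter sequence was matched. Of the 18 higher members, 11 matched a promoter in the table. Each line gives the 250 bases before the start, 5′ to 3′ on the strand of the gene. Capitals mark matches on either strand to TGACG, the core of the cAMP response element, or to the CArG box that serum response factor binds. The windows are chr12:85473640-85473889 on the plus strand for Fos, chr7:19310046-19310295 on the minus strand for Fosb, chr8:84978749-84978998 on the minus strand for Junb, and chr10:67537619-67537868 on the plus strand for Egr2, the middle of 5 starts listed for that gene.
Fos: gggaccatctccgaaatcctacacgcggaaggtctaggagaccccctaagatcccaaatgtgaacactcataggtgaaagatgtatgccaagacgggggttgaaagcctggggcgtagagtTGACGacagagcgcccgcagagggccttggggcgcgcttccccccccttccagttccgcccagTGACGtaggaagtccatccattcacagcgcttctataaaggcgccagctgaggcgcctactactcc
Fosb: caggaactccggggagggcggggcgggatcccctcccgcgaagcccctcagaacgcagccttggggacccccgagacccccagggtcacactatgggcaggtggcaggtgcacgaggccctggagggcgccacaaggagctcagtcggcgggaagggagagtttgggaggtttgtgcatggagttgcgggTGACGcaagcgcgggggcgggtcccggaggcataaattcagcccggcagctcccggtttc
Junb: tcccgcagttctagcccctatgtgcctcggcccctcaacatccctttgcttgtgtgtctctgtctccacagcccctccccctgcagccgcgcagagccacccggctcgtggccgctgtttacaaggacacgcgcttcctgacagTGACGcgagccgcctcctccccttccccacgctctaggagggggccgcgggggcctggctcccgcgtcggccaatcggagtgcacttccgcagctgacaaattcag
Egr2: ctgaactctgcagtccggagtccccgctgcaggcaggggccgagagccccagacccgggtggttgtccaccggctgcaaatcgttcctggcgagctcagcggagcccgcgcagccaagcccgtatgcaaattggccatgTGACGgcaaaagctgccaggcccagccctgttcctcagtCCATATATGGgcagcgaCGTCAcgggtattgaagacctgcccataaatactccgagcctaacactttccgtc
TGACG occurred in the window of 7 of the 11 matched members (Atf3, Btg2, Egr2, Fos, Fosb, Junb and Maff) and of 29.4% of the 11493 tested genes with a promoter in the table. The CArG box occurred in 1 of the 11 (Egr2) and in 1.40% of tested genes, and the AP-1 motif TGANTCA in 0 of the 11 and 5.69% of tested genes. The matches describe these windows only, and no binding was measured.

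Of the lists of stress genes, that of ATF4 targets had the most members higher. The list of ATF4 targets and the integrated stress response, a program that cells start when translation initiation is held back, had 15 of 49 tested members higher and 0 lower (28 and 1 at an unadjusted p under 0.05, 18 and 1 by DESeq2), with a median log2 fold change of 0.13. Cebpb, a transcription factor of stress and inflammation, was at 67.9 and 67.2 CPM in the AMP libraries and 45.6 and 39.5 CPM in the ENPP1+ATP libraries (0.67 ± 0.09, adjusted p = 0.00038). Its order differed from that of Fos, since vehicle, at 88.6 and 77.1 CPM, lay above both AMP and ENPP1+ATP MCndM. Atf3, which is on both the stress and the immediate early lists, was at 146 and 129.6 CPM against 87.6 and 94.1 CPM (0.60 ± 0.09, adjusted p = 0.00058), with 30.7 and 37.0 CPM in vehicle. Ppp1r15a, the GADD34 subunit that reverses the translation block, was at 146 and 139 CPM against 97.2 and 99.1 CPM (0.54 ± 0.06, adjusted p = 5.95e-06). Ddit3, which encodes the proapoptotic factor CHOP, was at 296 and 274 CPM against 213 and 203 CPM and 134 and 145 CPM in vehicle, the 3 groups apart from each other (0.45 ± 0.06, adjusted p = 7.66e-05). These 4 genes were called in every alternative fit. The cystine transporter gene Slc7a11 was at 37.4 and 44.5 CPM against 23.5 and 33.9 CPM (0.52 ± 0.13, adjusted p = 0.030). As for Cebpb, vehicle lay above both AMP and ENPP1+ATP MCndM for Slc7a11, at 62.9 and 72.8 CPM. Its call was lost without replicate 2 of AMP MCndM and without replicate 1 of ENPP1+ATP MCndM, with log2 fold changes of 0.38 and 0.28. Without replicate 2 of ENPP1+ATP MCndM the log2 fold change of Slc7a11 was 0.80. For the list, 5 members were higher without replicate 2 of AMP MCndM and 4 without replicate 1 of ENPP1+ATP MCndM, and 7 with the 4 compared libraries fitted alone. Of 19 tested heat shock genes 0 were higher and 1 (Dnajb4, -0.21) was lower (3 and 4 at an unadjusted p under 0.05, 0 and 2 by DESeq2), and of 32 NRF2 and antioxidant genes 2 (Hmox1, 0.21, and Slc7a11) were higher and 3 (Prdx1, -0.23, Ftl1, -0.21, and Gpx4, -0.17) lower, against 2.60% and 3.65% of all genes. All of these heat shock and NRF2 counts were 0 without replicate 1 of ENPP1+ATP MCndM. Of 30 tested genes of the unfolded protein response, Ddit3 rose and Dnajc3 (-0.19) and Sec24d (-0.20) fell, against 2.60% and 3.65% of all genes. The counts were 4 and 4 at an unadjusted p under 0.05, and 1 and 2 by DESeq2. Dnajc3 and Sec24d lost their calls without replicate 1 of ENPP1+ATP MCndM, with log2 fold changes of -0.14 and -0.19. Dnajb4 (adjusted p = 0.12), Hmox1 (0.44), Prdx1 (0.16), Ftl1 (0.15) and Gpx4 (0.052) lost their calls without replicate 1 of ENPP1+ATP MCndM. Hmox1 (adjusted p = 0.20), Ftl1 (0.090) and Gpx4 (0.13) lost their calls without replicate 1 of AMP MCndM. Dnajb4 (adjusted p = 0.23), Hmox1 (0.074), Prdx1 (0.088), Gpx4 (0.090) and Dnajc3 (0.090) lost their calls without replicate 2 of AMP MCndM. Dnajb4 (adjusted p = 0.23) and Gpx4 (0.34) lost their calls without replicate 2 of ENPP1+ATP MCndM.

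Targets of p53 that feed back on p53 or arrest the cell cycle had 15 of 38 tested members higher and 1 lower, with a median log2 fold change of 0.24. Mdm2, the ubiquitin ligase that p53 induces and that degrades it, was at 695 and 693 CPM with AMP MCndM, 529.9 and 521 CPM with ENPP1+ATP MCndM and 133 and 139.8 CPM with vehicle. The libraries of each medium were close together and the 3 media did not overlap (0.40 ± 0.07 for AMP against ENPP1+ATP, adjusted p = 0.00074). Trp53 itself was at 256 and 255 CPM against 217 and 218 CPM (0.23 ± 0.04, adjusted p = 0.0016). The ENPP1+ATP libraries were at the vehicle level for Trp53 (222 and 213 CPM). Cdkn1a, the p21 inhibitor of cyclin-dependent kinases, was at 624 and 631 CPM against 461 and 498 CPM and 115 and 130.4 CPM in vehicle. Its groups did not overlap, but its difference did not pass the test (0.39 ± 0.14, adjusted p = 0.13). It passed with the 4 compared libraries fitted alone (adjusted p = 0.0021) and without the filter on low counts (2.54e-11), and in the other 7 alternatives the adjusted p was 0.061 to 0.46. Of the other members, the noncoding RNA Pvt1 (0.62 ± 0.11, adjusted p = 0.0014), the drug efflux pump gene Abcb1a (0.52 ± 0.15, adjusted p = 0.036) and the antiproliferative gene Btg2 (0.52 ± 0.09, adjusted p = 0.0030) rose most and Sesn1, a stress-induced regulator of mTOR signaling, fell (-0.38 ± 0.11, adjusted p = 0.048). Plk3 (0.44), Gadd45a (0.34), Gdf15 (0.34), Plk2 (0.30) and Sesn2 (0.28) were among the rest that rose. Pvt1 (adjusted p = 0.060), Abcb1a (0.34), Btg2 (0.060), Sesn1 (0.32), Gadd45a (0.17), Gdf15 (0.16) and Sesn2 (0.12) lost their calls without replicate 1 of ENPP1+ATP MCndM. Abcb1a (adjusted p = 0.066) lost its call without replicate 1 of AMP MCndM. Abcb1a (adjusted p = 0.13), Sesn1 (0.26), Gdf15 (0.084) and Sesn2 (0.061) lost their calls without replicate 2 of AMP MCndM. Abcb1a (adjusted p = 0.051), Sesn1 (0.081) and Sesn2 (0.060) lost their calls without replicate 2 of ENPP1+ATP MCndM.

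Of 16 tested p53 targets that act in cell death, 3 were higher and 0 were lower (9 and 0 at an unadjusted p under 0.05, 5 and 0 by DESeq2). Bax, which permeabilizes the mitochondrial outer membrane, was at 78.8 and 76.1 CPM against 58.2 and 64.4 CPM and 41.0 and 40.1 CPM in vehicle (0.34 ± 0.07, adjusted p = 0.0031). The death receptor gene Tnfrsf10b was at 147 and 154 CPM against 118 and 129 CPM (0.28 ± 0.08, adjusted p = 0.033) and the nuclease gene Aen at 133 and 138 CPM against 109.9 and 113 CPM (0.28 ± 0.06, adjusted p = 0.0070). Bcl2l1, which encodes the antiapoptotic BCL-XL, rose by a similar amount, at 113 and 117 CPM against 86.8 and 94.7 CPM (0.34 ± 0.05, adjusted p = 0.00021). Mdm2, Trp53 and Bcl2l1 were called in all 9 alternatives. The counts without replicate 1 of ENPP1+ATP MCndM were 4 members higher in the arrest list and 0 in the death list, and the adjusted p was 0.10 for Bax, 0.30 for Tnfrsf10b, 0.10 for Aen, 0.060 for Pvt1, 0.060 for Btg2, 0.34 for Abcb1a and 0.32 for Sesn1. The arrest list had 9 members higher without replicate 2 of ENPP1+ATP MCndM, 10 without replicate 1 of AMP MCndM and 8 without its replicate 2, and the death list had 2, 2 and 1. With the 4 compared libraries fitted alone the counts were 15 and 5. Tnfrsf10b (adjusted p = 0.083) lost its call without replicate 1 of AMP MCndM. Tnfrsf10b (adjusted p = 0.15) and Aen (0.051) lost their calls without replicate 2 of AMP MCndM. Tnfrsf10b (adjusted p = 0.059) lost its call without replicate 2 of ENPP1+ATP MCndM.

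**Figure D2:**
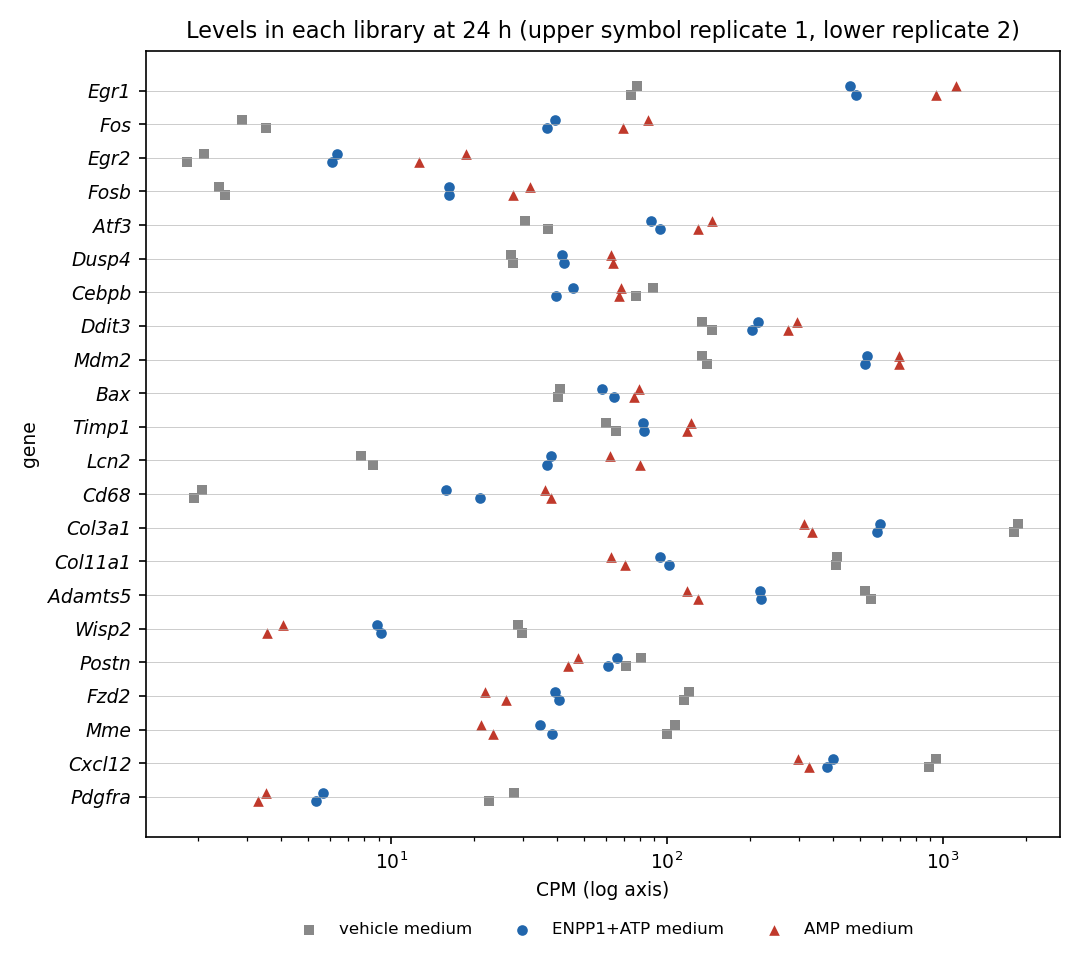
Each symbol is the level of a gene in CPM in a library at 24 h, on a log axis, for vehicle (gray squares), ENPP1+ATP (blue circles) and AMP (red triangles) MCndM, with 2 libraries per medium. The AMP and ENPP1+ATP symbols do not overlap for any of the 22 genes drawn. ENPP1+ATP lies between vehicle and AMP for all of these genes except Cebpb, for which vehicle is the highest of the media drawn.

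Among the lists used here, those of ECM genes held the most genes on the lower side. Of 30 tested collagens, 8 were lower with AMP MCndM and 0 were higher (12 and 1 at an unadjusted p under 0.05, 10 and 0 by DESeq2), with a median log2 fold change of -0.12. Col3a1, which encodes the type III collagen of soft connective tissue, was at 313 and 335 CPM in the AMP libraries, 594 and 577 CPM in the ENPP1+ATP libraries and 1875 and 1809.8 CPM in the vehicle libraries. Replicates differed far less than media, and the difference between the MCndM was -0.85 ± 0.07 on the log2 scale (adjusted p = 6.19e-08). Against vehicle, Col3a1 differed by -2.51 with AMP MCndM and by -1.65 with ENPP1+ATP MCndM. Col11a1, a collagen that nucleates fibrils, was at 62.5 and 70.3 CPM against 94.3 and 102 CPM, far below vehicle at 414 and 409 CPM (-0.56 ± 0.08, adjusted p = 0.00076). Col6a1, of the microfibrillar collagen around cells, was at 616 and 628 CPM against 907 and 852 CPM (-0.50 ± 0.12, adjusted p = 0.024). Col1a2 (-0.44), Col12a1 (-0.44), Col4a5 (-0.44), Col16a1 (-0.24) and Col1a1 (-0.18) completed the 8. Col3a1 and Col11a1 were called in every alternative fit. The call of Col6a1 was lost without any of the 4 libraries (adjusted p = 0.12, 0.082, 0.16 and 0.064 without AMP replicates 1 and 2 and ENPP1+ATP replicates 1 and 2), and 5 collagens were lower without replicate 1 of AMP MCndM or without either ENPP1+ATP library. Col16a1 (adjusted p = 0.18) and Col1a1 (0.27) lost their calls without replicate 1 of ENPP1+ATP MCndM. Col16a1 (adjusted p = 0.35) and Col1a1 (0.22) lost their calls without replicate 1 of AMP MCndM. Col16a1 (adjusted p = 0.18) and Col1a1 (0.069) lost their calls without replicate 2 of ENPP1+ATP MCndM.

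Matrix glycoproteins and proteoglycans had 17 of 48 tested members lower and 3 higher, with a median log2 fold change of -0.19. Wisp2 (also named Ccn5), a matricellular protein that opposes fibrosis, was at 4.06 and 3.56 CPM against 8.88 and 9.21 CPM, with 28.9 and 29.9 CPM in vehicle (-1.26 ± 0.15, adjusted p = 1.70e-05). Postn, encoding periostin, which marks activated CFs, was at 47.7 and 43.6 CPM against 65.8 and 61.3 CPM (-0.48 ± 0.07, adjusted p = 0.00021). Both kept their calls in every alternative. The small leucine-rich proteoglycan genes Fmod and Omd were called lower from few reads. Fmod was at 4.13 and 4.73 CPM against 11.7 and 6.29 CPM (-1.01 ± 0.25, adjusted p = 0.024), the ENPP1+ATP libraries being well apart. Its log2 fold change was -0.50 without replicate 1 and -1.40 without replicate 2 of ENPP1+ATP MCndM. Omd was at 0.316 and 0.314 CPM against 0.710 and 1.77 CPM (-1.98 ± 0.53, adjusted p = 0.033). Without replicate 2 of ENPP1+ATP MCndM the log2 fold change of Omd was -1.17. Basement membrane genes were among the 17, namely Nid2 (-0.33), Lamb2 (-0.31), Lama5 (-0.26) and Hspg2 (-0.24), as were Emilin1 (-0.38), Fbn1 (-0.25) and Sparc (-0.16). The call of Lama5 was lost with the replicate block (adjusted p = 0.061) and with RLE factors (0.051). Fmod (adjusted p = 0.33), Lama5 (0.36), Hspg2 (0.24) and Sparc (0.075) lost their calls without replicate 1 of ENPP1+ATP MCndM. Fmod (adjusted p = 0.13), Omd (0.12), Lama5 (0.26), Hspg2 (0.24), Fbn1 (0.15) and Sparc (0.098) lost their calls without replicate 1 of AMP MCndM. Fmod (adjusted p = 0.072), Omd (0.15) and Sparc (0.071) lost their calls without replicate 2 of AMP MCndM. Omd (adjusted p = 0.33), Lama5 (0.054), Hspg2 (0.070), Fbn1 (0.093) and Sparc (0.22) lost their calls without replicate 2 of ENPP1+ATP MCndM.

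The members of this list that rose were Matn4, Ctgf and Cyr61. Matn4, a matrilin, was at 5.91 and 7.51 CPM against 2.91 and 3.83 CPM and 0.228 and 0.288 CPM in vehicle (1.00 ± 0.21, adjusted p = 0.0055). Ctgf and Cyr61, matricellular genes that also count as immediate early genes and as targets of YAP, were at 161 and 166 against 119 and 134 CPM (0.37 ± 0.08, adjusted p = 0.0061) and 498 and 472 against 406 and 414 CPM (0.24 ± 0.05, adjusted p = 0.0035). Of 22 tested YAP and TEAD targets, Ctgf and Cyr61 were called higher and Crim1 (-0.19), Ajuba (-0.20) and Arhgef17 (-0.21) lower. Over all genes 2.60% were higher and 3.65% lower. At an unadjusted p under 0.05, 3 of these targets were higher and 6 lower, and DESeq2 called 2 and 4. Without replicate 1 of ENPP1+ATP MCndM the adjusted p was 0.13 for Matn4, 0.14 for Ctgf, 0.061 for Cyr61, 0.21 for Crim1, 0.14 for Ajuba and 0.085 for Arhgef17, and the counts of the glycoprotein list were 7 lower and 0 higher. Without replicate 1 of AMP MCndM 7 of its members were lower and without replicate 2 of ENPP1+ATP MCndM 10. With the 4 compared libraries fitted alone, 4 members were lower and 4 higher, and 0 YAP and TEAD targets were lower. Crim1 (adjusted p = 0.23), Ajuba (0.064) and Arhgef17 (0.075) lost their calls without replicate 1 of AMP MCndM. Matn4 (adjusted p = 0.056) and Ajuba (0.086) lost their calls without replicate 2 of AMP MCndM. Crim1 (adjusted p = 0.13) and Ajuba (0.10) lost their calls without replicate 2 of ENPP1+ATP MCndM.

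Enzymes that process the matrix parted in both directions. Adamts5, a protease that cleaves the proteoglycans aggrecan and versican, was at 118 and 129 CPM with AMP MCndM, 217 and 219.9 CPM with ENPP1+ATP MCndM and 523 and 549.9 CPM with vehicle, a stepwise order with tight replicates (-0.82 ± 0.06 for AMP against ENPP1+ATP, adjusted p = 4.63e-09). Against vehicle its log2 fold changes were -2.12 with AMP and -1.30 with ENPP1+ATP MCndM. Timp1, an inhibitor of matrix metalloproteinases, stood on the other side at 123 and 119 CPM against 81.5 and 82.3 CPM and 60.2 and 65.0 CPM in vehicle (0.56 ± 0.07, adjusted p = 8.04e-05), and its relative Timp3 was lower at 132 and 131 CPM against 167 and 153 CPM (-0.28 ± 0.05, adjusted p = 0.0019). In all, 2 of 27 tested metalloproteinases, inhibitors and related genes rose and 4 fell, against 2.60% and 3.65% of all genes. The counts were 4 and 7 at an unadjusted p under 0.05, and 2 and 5 by DESeq2. Of 24 tested cross-linking and processing enzymes, 3 fell and 0 rose (7 and 0 at an unadjusted p under 0.05, 4 and 0 by DESeq2), namely the lysyl oxidase gene Lox (-0.27 ± 0.07, adjusted p = 0.028), P4ha3 (-0.27 ± 0.07, adjusted p = 0.020) and Adamts2 (-0.21 ± 0.06, adjusted p = 0.034). The log2 fold change of Lox was -0.13 without replicate 1 and -0.43 without replicate 2 of AMP MCndM. Adamts5 and Timp1 were called in every alternative, and 1 cross-linking enzyme fell with the 4 compared libraries fitted alone. Lox lost its call without replicate 1 of AMP MCndM (adjusted p = 0.26) and replicate 2 of ENPP1+ATP MCndM (0.22), and the adjusted p without replicate 1 of ENPP1+ATP MCndM was 0.065 for Timp3, 0.11 for P4ha3 and 0.21 for Adamts2. Adamts2 (adjusted p = 0.15) lost its call without replicate 1 of AMP MCndM. P4ha3 (adjusted p = 0.081) lost its call without replicate 2 of AMP MCndM. P4ha3 (adjusted p = 0.087) and Adamts2 (0.086) lost their calls without replicate 2 of ENPP1+ATP MCndM.

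**Figure D3:**
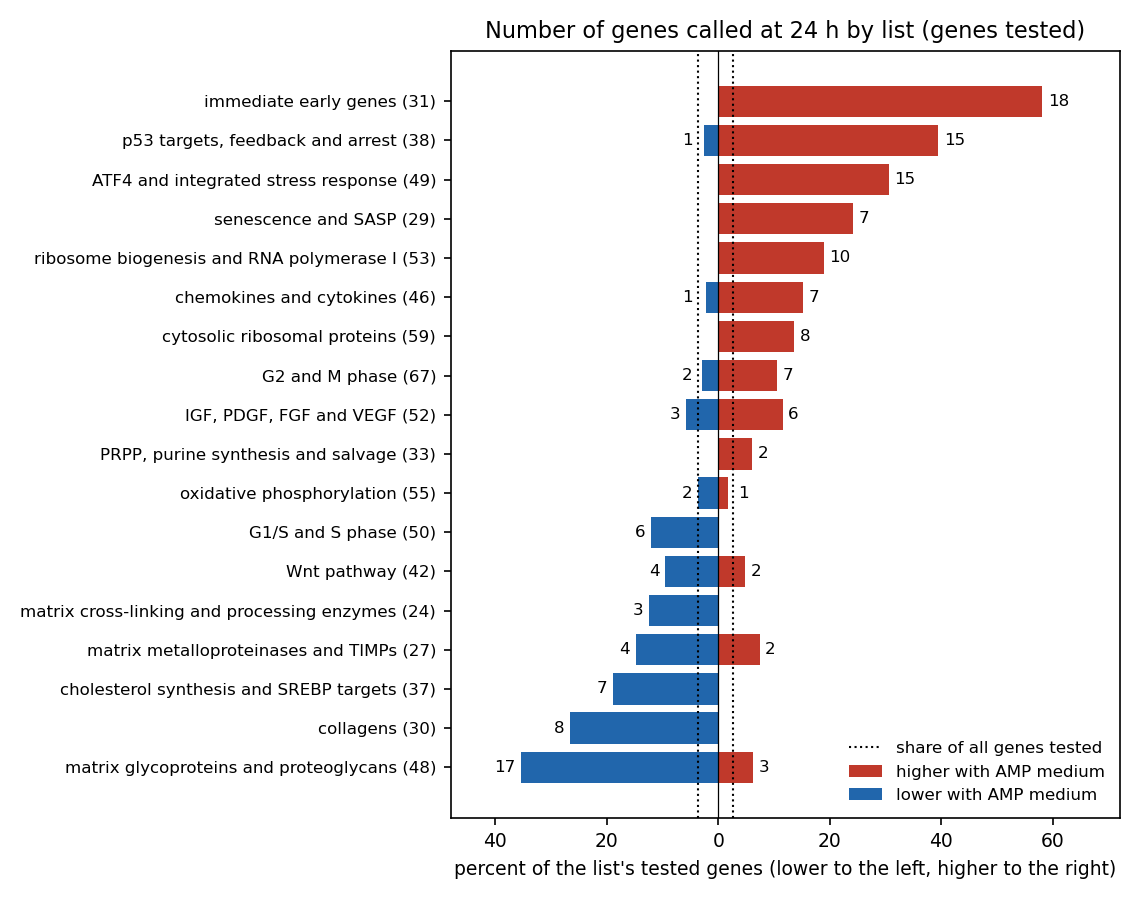
Bars give the percentage of the tested genes of each list that were higher (red, to the right) or lower (blue, to the left) with AMP than with ENPP1+ATP MCndM at 24 h, with the number of genes at the bar's end and the number tested in parentheses. Dotted lines mark the shares over all genes tested, 2.60% higher and 3.65% lower. The longest bar to the right is that of immediate early genes (18 of 31 higher). To the left, matrix glycoproteins and proteoglycans have the most genes (17 of 48 lower).

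Several receptors and surface proteins were among the genes that differed, in both directions. Fzd2, a receptor for Wnt ligands, was at 21.8 and 26.1 CPM against 39.1 and 40.7 CPM and 119.9 and 115 CPM in vehicle (-0.72 ± 0.08, adjusted p = 5.38e-06), and its relative Fzd1 was at 30.4 and 30.4 CPM against 41.3 and 41.3 CPM and 100.1 and 100.3 CPM (-0.44 ± 0.06, adjusted p = 5.12e-05). With the secreted Wnt modulator Sfrp2 (-0.28) and the coreceptor gene Lrp6 (-0.20), they made 4 of 42 tested Wnt pathway genes that fell, against 3.65% of all genes, and 2 rose. The ligand gene Wnt9a (0.47 ± 0.11, adjusted p = 0.012) and the transcription factor gene Lef1 rose, the latter from 0.196 and 0.317 CPM to 1.43 and 0.915 CPM, close to vehicle (1.04 and 0.961 CPM), all at very few reads. Mme, the cell surface peptidase neprilysin, was at 21.2 and 23.4 CPM against 34.6 and 38.3 CPM and 107 and 99.8 CPM in vehicle (-0.70 ± 0.07, adjusted p = 5.38e-06). Pdgfra, the PDGF receptor that defines many CFs, was at only 3.50 and 3.30 CPM against 5.68 and 5.34 CPM, and at 27.9 and 22.6 CPM in vehicle (-0.70 ± 0.15, adjusted p = 0.0074). Of 14 tested fibroblast markers, 6 fell and 0 rose (8 and 1 at an unadjusted p under 0.05, 7 and 1 by DESeq2), namely Col1a1, Col1a2, Col3a1, Postn, Pdgfra and the secreted glycoprotein gene Fstl1 (-0.21). Fzd2, Fzd1 and Mme were called in every alternative. The adjusted p without replicate 1 of ENPP1+ATP MCndM was 0.088 for Pdgfra, 0.11 for Wnt9a and 0.11 for Lef1, and 3 fibroblast markers fell without that library. Fstl1 (adjusted p = 0.066) lost its call without replicate 1 of ENPP1+ATP MCndM. Sfrp2 (adjusted p = 0.060), Lrp6 (0.082) and Fstl1 (0.25) lost their calls without replicate 1 of AMP MCndM. Wnt9a (adjusted p = 0.059) and Pdgfra (0.071) lost their calls without replicate 2 of AMP MCndM. Lrp6 (adjusted p = 0.12), Wnt9a (0.075) and Fstl1 (0.16) lost their calls without replicate 2 of ENPP1+ATP MCndM.

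Of 24 tested Hedgehog and Notch genes, 2 fell (Cdon and Jag1, against 3.65% of all genes) and 0 rose (2 and 1 at an unadjusted p under 0.05, 2 and 0 by DESeq2), with a median log2 fold change of 0.01. Bmp4 was at 12.7 and 11.97 CPM against 16.4 and 17.0 CPM and 64.0 and 68.6 CPM in vehicle (-0.44 ± 0.09, adjusted p = 0.0045), the Notch ligand gene Jag1 at 38.7 and 42.5 CPM against 48.9 and 51.9 CPM and 124 and 137 CPM (-0.31 ± 0.06, adjusted p = 0.0056), and the Hedgehog coreceptor gene Cdon at 68.1 and 70.4 CPM against 93.6 and 82.6 CPM and 174 and 168 CPM (-0.35 ± 0.06, adjusted p = 0.0019). Over the TGF-beta and BMP pathway, 4 of 50 tested genes rose and 2 fell, against 2.60% and 3.65% of all genes. At an unadjusted p under 0.05 the counts were 10 and 10, and by DESeq2 5 and 2. Tgif1, a repressor of TGF-beta signaling, rose from 38.6 and 38.8 CPM to 48.9 and 49.2 CPM (0.34 ± 0.05, adjusted p = 0.00044), and Smad1 from 38.0 and 35.3 CPM to 43.0 and 44.4 CPM (0.26 ± 0.07, adjusted p = 0.021). The myofibroblast marker Acta2 was at 24.6 and 24.3 CPM against 28.1 and 32.4 CPM and 77.2 and 72.7 CPM in vehicle (-0.31 ± 0.08, adjusted p = 0.021). Of 31 contractile genes, 2 rose and 2 fell, against 2.60% and 3.65% of all genes (7 and 8 at an unadjusted p under 0.05, 3 and 3 by DESeq2). With the 4 compared libraries fitted alone, 2 TGF-beta and BMP genes rose and 0 fell, and 2 contractile genes rose and 0 fell. Without replicate 2 of ENPP1+ATP MCndM the adjusted p was 0.23 for Acta2, 0.069 for Jag1 and 0.20 for Smad1, and without replicate 1 it was 0.070 for Cdon. Smad1 (adjusted p = 0.060) lost its call without replicate 1 of ENPP1+ATP MCndM. Jag1 (adjusted p = 0.062) and Acta2 (0.060) lost their calls without replicate 1 of AMP MCndM. Smad1 (adjusted p = 0.093) and Acta2 (0.071) lost their calls without replicate 2 of AMP MCndM.

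Secreted mediators of inflammation rose in part. Of 46 tested chemokine and cytokine genes and their regulators, 7 rose and 1 fell, with a median log2 fold change of 0.10. Lcn2, the iron-binding acute phase protein lipocalin 2, was at 62.0 and 79.6 CPM against 37.8 and 36.7 CPM and 7.80 and 8.62 CPM in vehicle (0.93 ± 0.13, adjusted p = 0.00027). Lif, a cytokine of the IL-6 family, was at 34.0 and 39.5 CPM against 22.8 and 24.4 CPM (0.64 ± 0.13, adjusted p = 0.0056), and the chemokine gene Ccl5 at 37.4 and 51.9 CPM against 30.5 and 33.5 CPM, below the 67.2 and 67.0 CPM of vehicle (0.49 ± 0.12, adjusted p = 0.028). The log2 fold change of Ccl5 was 0.69 without replicate 1 and 0.22 without replicate 2 of AMP MCndM. Cxcl12, the chemokine that retains CXCR4-bearing cells, fell, at 298 and 327 CPM against 398 and 379 CPM and 941 and 891 CPM in vehicle (-0.31 ± 0.06, adjusted p = 0.0016). The secretory genes of senescence had 7 of 29 members higher and 0 lower (12 and 1 at an unadjusted p under 0.05, 7 and 0 by DESeq2). The largest were Plaur, the urokinase receptor, at 17.2 and 17.4 CPM against 11.2 and 10.8 CPM (0.65 ± 0.11, adjusted p = 0.00086), Timp1 and the EGF receptor ligand gene Ereg (0.45 ± 0.10, adjusted p = 0.012). Of 58 tested interferon-stimulated genes, 2 were higher (Ifi205 and Xaf1), against 2.60% of all genes, and 0 were lower (6 and 1 at an unadjusted p under 0.05, 5 and 0 by DESeq2). This count depended on the fit, with 14 higher and 1 lower without the filter on low counts, 5 higher with the replicate block or without replicate 1 of AMP MCndM, 1 without replicate 2 of ENPP1+ATP MCndM, and 0 without either of the other libraries. Lcn2, Cxcl12 and Plaur were called in every alternative. Ifi205 and Xaf1 lost their calls when any of the 4 compared libraries was left out. Their log2 fold changes were then 0.34 to 0.49 and 0.14 to 0.23. Only 1 cytokine gene and 2 senescence genes rose without replicate 1 of ENPP1+ATP MCndM, and then the adjusted p was 0.091 for Lif, 0.24 for Ccl5, 0.17 for Ereg, 0.28 for Ifi205 and 0.37 for Xaf1. Without each of the other libraries 3 or 4 cytokine genes rose. Ereg (adjusted p = 0.085) lost its call without replicate 1 of AMP MCndM. Lif (adjusted p = 0.056) and Ccl5 (0.20) lost their calls without replicate 2 of AMP MCndM. Ccl5 (adjusted p = 0.085) lost its call without replicate 2 of ENPP1+ATP MCndM.

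Some genes of ribosome production rose with AMP MCndM, and for the 6 named here both media lay below vehicle. Of 53 tested genes of ribosome biogenesis, 10 rose and 0 fell (24 and 1 at an unadjusted p under 0.05, 13 and 0 by DESeq2), and of 59 cytosolic ribosomal protein genes, 8 rose and 0 fell (24 and 0, and 12 and 0). Myc, which drives ribosome biogenesis, was at 64.9 and 65.7 CPM against 47.6 and 52.0 CPM and 91.4 and 87.4 CPM in vehicle (0.39 ± 0.07, adjusted p = 0.0013). Mybbp1a, a nucleolar protein, was at 174 and 189 CPM against 147 and 156 CPM and 266 and 279 CPM (0.26 ± 0.05, adjusted p = 0.0028), and the fibrillarin gene Fbl at 46.8 and 49.2 CPM against 41.0 and 39.9 CPM and 69.3 and 75.6 CPM (0.25 ± 0.06, adjusted p = 0.0098). Rps27 (0.35 ± 0.09, adjusted p = 0.025), Rpl19 (0.34 ± 0.06, adjusted p = 0.0028) and Rps20 (0.30 ± 0.06, adjusted p = 0.0053) had the largest differences among ribosomal protein genes, whose reads can be shared with pseudogene copies. Neither list had a gene called (0 and 0) without replicate 1 of ENPP1+ATP MCndM, and then the adjusted p was 0.058 for Myc, 0.077 for Mybbp1a, 0.066 for Fbl, 0.15 for Rps27, 0.075 for Rpl19 and 0.15 for Rps20. Without its replicate 2 the counts were 4 and 5, without replicate 2 of AMP MCndM 6 and 2, and with the 4 compared libraries fitted alone 2 and 8. Rps27 (adjusted p = 0.081) lost its call without replicate 1 of AMP MCndM. Fbl (adjusted p = 0.079), Rps27 (0.14) and Rps20 (0.051) lost their calls without replicate 2 of AMP MCndM. Fbl (adjusted p = 0.10) and Rps27 (0.16) lost their calls without replicate 2 of ENPP1+ATP MCndM.

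The cell cycle showed small differences, downward for S phase genes and in both directions for genes of G2 and M phase. Of 50 tested genes of the G1/S transition and S phase, 6 fell and 0 rose (18 and 0 at an unadjusted p under 0.05, 8 and 0 by DESeq2). Of 67 genes of G2 and M phase, 7 rose and 2 fell, against 2.60% and 3.65% of all genes. Their counts were 14 and 6 at an unadjusted p under 0.05, and 7 and 5 by DESeq2, with a median log2 fold change of 0.03. Gins1 (-0.37 ± 0.09, adjusted p = 0.011), Dscc1 (-0.34 ± 0.09, adjusted p = 0.020) and Rpa1 (-0.24 ± 0.05, adjusted p = 0.0028), which serve the replication fork, had the largest of these differences. Mean levels with AMP, ENPP1+ATP and vehicle MCndM were 17.3, 22.2 and 17.5 CPM for Gins1 and 22.8, 28.8 and 18.7 CPM for Dscc1. For Rpa1 they were 245, 290 and 259 CPM. ENPP1+ATP MCndM thus lay above vehicle for each, while AMP MCndM was near vehicle for Gins1, above it for Dscc1 and slightly below it for Rpa1. The mitotic kinase gene Aurka was at 129 and 114 CPM against 94.4 and 97.8 CPM and 56.5 and 59.6 CPM in vehicle (0.34 ± 0.07, adjusted p = 0.0052), and the kinesin gene Kif18b at 230.3 and 231 CPM against 190.0 and 189.9 CPM and 75.4 and 74.0 CPM (0.28 ± 0.05, adjusted p = 0.0020). Ccnd1, the cyclin D1 that carries growth factor signals into G1, was at 101 and 101 CPM against 63.7 and 76.6 CPM (0.53 ± 0.08, adjusted p = 0.00022), while the inhibitor gene Cdkn2c fell (-0.33 ± 0.06, adjusted p = 0.0040). Kif18b and Ccnd1 were called in every alternative. When replicate 1 of ENPP1+ATP MCndM was left out, 0 of the S phase genes fell and 1 of the mitotic genes rose, and the adjusted p was 0.063 for Gins1, 0.16 for Dscc1, 0.075 for Rpa1, 0.075 for Aurka and 0.070 for Cdkn2c. Without replicate 2 of ENPP1+ATP MCndM 2 S phase genes fell, without each AMP library 3, and without replicate 1 of AMP MCndM 3 mitotic genes rose. With the 4 compared libraries fitted alone 1 S phase gene fell and 4 mitotic genes rose. Dscc1 (adjusted p = 0.076) and Aurka (0.076) lost their calls without replicate 1 of AMP MCndM. Gins1 (adjusted p = 0.12) lost its call without replicate 2 of AMP MCndM. Gins1 (adjusted p = 0.077) and Dscc1 (0.055) lost their calls without replicate 2 of ENPP1+ATP MCndM.

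Purine and pyrimidine genes were called at shares close to that of all genes (6.25% in either direction). Among 33 tested genes of purine synthesis and salvage, 2 rose and 0 fell (5 and 1 at an unadjusted p under 0.05, 2 and 1 by DESeq2). Aprt, the enzyme that salvages adenine to AMP, was at 85.1 and 93.8 CPM with AMP MCndM, 65.4 and 68.9 CPM with ENPP1+ATP MCndM and 69.5 and 71.5 CPM with vehicle (0.42 ± 0.06, adjusted p = 0.00020). Ada, adenosine deaminase, was at 32.4 and 29.6 CPM against 22.7 and 23.3 CPM, with vehicle close to the latter at 21.2 and 21.9 CPM (0.43 ± 0.07, adjusted p = 0.00068). Of 24 pyrimidine genes, the deoxycytidylate deaminase gene Dctd rose (0.45 ± 0.07, adjusted p = 0.00038) and the thymidine kinase gene Tk1 fell (-0.25 ± 0.06, adjusted p = 0.011; without replicate 1 of ENPP1+ATP MCndM, adjusted p = 0.15). Of 16 tested genes of deoxynucleotide supply, 2 fell (Tk1 and the ribonucleotide reductase gene Rrm1, -0.19 ± 0.04, adjusted p = 0.014) and 0 rose (4 and 2 at an unadjusted p under 0.05, 2 and 1 by DESeq2), and 0 fell without replicate 1 of ENPP1+ATP MCndM or without replicate 2 of AMP MCndM. Umps, which completes de novo UMP synthesis, and Prps1, which makes the ribose donor PRPP, did not pass the test, at 98.6 and 97.9 against 106 and 104 CPM (-0.10 ± 0.05, adjusted p = 0.24) and 51.9 and 50.5 against 51.1 and 49.1 CPM (0.03 ± 0.07, adjusted p = 0.83). Mean levels with AMP, ENPP1+ATP and vehicle MCndM were 24.1, 17.6 and 29.3 CPM for Dctd, so that both media lay below vehicle. They were 110, 131 and 113 CPM for Tk1, with AMP MCndM near vehicle, and 444, 505 and 332 CPM for Rrm1, with both media above it. Aprt, Ada and Dctd were called in every alternative. Rrm1 (adjusted p = 0.17) lost its call without replicate 1 of ENPP1+ATP MCndM. Tk1 (adjusted p = 0.070) and Rrm1 (0.079) lost their calls without replicate 2 of AMP MCndM.

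Genes that handle extracellular nucleotides were also called at about the share of all genes, with 1 of 30 tested higher (the nucleoside transporter gene Slc29a1, 0.17 ± 0.05, adjusted p = 0.043) and 1 lower (Entpd5, -0.35 ± 0.07, adjusted p = 0.0025). Both calls were lost without replicate 1 of ENPP1+ATP MCndM (adjusted p = 0.33 and 0.060). Enpp1 itself was at 27.2 and 24.0 CPM with AMP MCndM and 24.1 and 21.8 CPM with ENPP1+ATP MCndM, which overlap (0.16 ± 0.13, adjusted p = 0.54), and both were above the 6.23 and 5.81 CPM of vehicle. Nt5e, the CD73 enzyme that turns AMP into adenosine, was at 0.438 and 0.183 CPM against 0.441 and 0.407 CPM (-0.55 ± 0.48, adjusted p = 0.56), and the adenosine receptor gene Adora2b at 1.02 and 0.824 CPM against 0.587 and 0.792 CPM (0.39 ± 0.33, adjusted p = 0.54). Without replicate 1 or 2 of AMP MCndM the log2 fold change of Nt5e was -1.20 or 0.04. Neither gene passed, at levels under 2 CPM in all 4 libraries. Targets of cAMP and CREB, the pathway downstream of A2 adenosine receptors, had 4 of 23 members higher and 1 lower. The 4 were Fosb, Atf3, Dusp4 and Crtc2 (0.21), of which all but Crtc2 are also on the immediate early list, and the phosphodiesterase gene Pde4b fell (-0.35 ± 0.10, adjusted p = 0.029; 0.13 without replicate 1 of ENPP1+ATP MCndM). Crtc2 (adjusted p = 0.20) lost its call without replicate 1 of ENPP1+ATP MCndM. Slc29a1 (adjusted p = 0.079) and Crtc2 (0.12) lost their calls without replicate 1 of AMP MCndM. Slc29a1 (adjusted p = 0.17), Crtc2 (0.055) and Pde4b (0.25) lost their calls without replicate 2 of AMP MCndM. Slc29a1 (adjusted p = 0.097), Crtc2 (0.10) and Pde4b (0.11) lost their calls without replicate 2 of ENPP1+ATP MCndM.

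Some lipid synthesis genes fell with AMP MCndM. Of 37 tested genes of cholesterol and fatty acid synthesis under SREBP control, 7 fell and 0 rose (12 and 0 at an unadjusted p under 0.05, 8 and 0 by DESeq2), with a median log2 fold change of -0.11. Fasn, fatty acid synthase, was at 1159.5 and 1155 CPM against 1507 and 1345 CPM and 1943 and 1901 CPM in vehicle (-0.30 ± 0.06, adjusted p = 0.0059). The desaturase gene Scd2 (-0.28 ± 0.06, adjusted p = 0.0037) and Acly, which supplies acetyl-CoA (-0.27 ± 0.05, adjusted p = 0.0041), fell to a similar extent. For both, vehicle (1645 and 1689.7 and 1102 and 1123 CPM) lay above AMP and ENPP1+ATP MCndM. In contrast, Soat2, which esterifies cholesterol, had the largest rise among genes whose mean log2 CPM reached 2, at 5.72 and 8.84 CPM against 2.23 and 2.99 CPM and 2.71 and 3.00 CPM in vehicle (1.49 ± 0.23, adjusted p = 0.00029). Soat2 kept its call in every alternative. Without replicate 1 of ENPP1+ATP MCndM 0 of the 7 SREBP genes passed, with adjusted p of 0.15 for Fasn, 0.062 for Scd2 and 0.066 for Acly. In energy metabolism, 1 of 55 oxidative phosphorylation genes was higher and 2 were lower, near the 2.60% and 3.65% of all genes, and 2 of 39 genes of glycolysis and hypoxia were higher and 2 lower, the latter including the phosphofructokinase gene Pfkm at 43.8 and 43.2 CPM against 53.3 and 53.5 CPM (-0.30 ± 0.05, adjusted p = 0.0016). Without replicate 1 of ENPP1+ATP MCndM, 0 oxidative phosphorylation genes were higher or lower and 0 glycolysis and hypoxia genes were higher, while 2 were lower.

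Several other genes ranked among the largest differences. Atg9b, a membrane protein of autophagosome formation, was at 11.3 and 12.9 CPM against 5.04 and 5.52 CPM and 0.271 and 0.408 CPM in vehicle (1.20 ± 0.23, adjusted p = 0.0033; 0.065 without replicate 1 of ENPP1+ATP MCndM). It was the only 1 of 36 autophagy and lysosome genes tested that rose, and 0 fell, against 2.60% and 3.65% of all genes. At an unadjusted p under 0.05 the counts were 3 and 2, and by DESeq2 1 and 0. Slc24a3, a sodium-calcium exchanger, was at 5.98 and 6.84 CPM against 11.1 and 11.8 CPM (-0.83 ± 0.11, adjusted p = 0.00011). The serine protease gene Prss23 was at 16.1 and 20.0 CPM against 30.6 and 28.6 CPM, and vehicle, at 29.0 and 30.5 CPM, lay with ENPP1+ATP MCndM (-0.70 ± 0.08, adjusted p = 2.24e-05). Afap1l2, an adaptor of SRC signaling, was at 7.13 and 6.87 CPM against 12.3 and 11.1 CPM with 10.4 and 8.36 CPM in vehicle (-0.75 ± 0.14, adjusted p = 0.0017). Slc24a3, Prss23 and Afap1l2 were called in every alternative. Fndc1, Chac2, Anks1b and the unnamed transcripts 1700120C14Rik and Gm10827 also ranked here, with log2 fold changes of -0.87, -0.69, 0.92, 1.34 and 0.99, and each lost its call without replicate 1 of ENPP1+ATP MCndM (adjusted p = 0.29, 0.052, 0.076, 0.12 and 0.14). Fndc1 (adjusted p = 0.17), 1700120C14Rik (0.12) and Gm10827 (0.093) lost their calls without replicate 1 of AMP MCndM. Fndc1 (adjusted p = 0.10), Chac2 (0.15) and Gm10827 (0.054) lost their calls without replicate 2 of AMP MCndM. Chac2 (adjusted p = 0.12) and Gm10827 (0.15) lost their calls without replicate 2 of ENPP1+ATP MCndM.

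Markers of other cell types were measured alongside. All 15 cardiomyocyte markers were under 10 CPM, their summed level was 18.7 to 19.2 CPM with AMP and 20.6 CPM in both libraries with ENPP1+ATP MCndM, and 0 were called (1 higher and 1 lower at an unadjusted p under 0.05, 0 by DESeq2). Of 13 macrophage and leukocyte markers 9 were below 1 CPM and 5 were tested, and their sum was 59.0 to 61.9 CPM with AMP and 34.4 to 42.4 CPM with ENPP1+ATP MCndM. The only one above 10 CPM in all 4 libraries was Cd68, a lysosomal glycoprotein, at 36.1 and 38.1 CPM against 15.8 and 21.0 CPM and 2.06 and 1.92 CPM in vehicle (1.01 ± 0.14, adjusted p = 0.00024). C1qa, C1qb and C1qc, which define tissue macrophages, were near 0. The part of other cells in the results was not tested. The smooth muscle and pericyte markers summed to 337 to 344 CPM with AMP and 316 to 321 CPM with ENPP1+ATP MCndM, with Notch3, Smtn and Mcam above 10 CPM and 5 of 10 markers, Myh11 among them, below 1 CPM. Mcam, an adhesion molecule of pericytes, was at 45.3 and 50.2 CPM against 58.6 and 54.6 CPM (-0.24 ± 0.07, adjusted p = 0.042). Des, counted with the same markers, was at 5.11 and 4.04 CPM against 1.88 and 2.65 CPM (1.00 ± 0.24, adjusted p = 0.015; 0.22 without replicate 1 of ENPP1+ATP MCndM). Mcam (adjusted p = 0.31) lost its call without replicate 1 of ENPP1+ATP MCndM. Mcam (adjusted p = 0.23) and Des (0.094) lost their calls without replicate 1 of AMP MCndM. Mcam (adjusted p = 0.062) lost its call without replicate 2 of ENPP1+ATP MCndM.

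At 48 h fewer genes were called between the media. With the same fit, 16 genes were higher (0.0895% of those tested) and 13 lower (0.0727%) with AMP than with ENPP1+ATP MCndM, and 2460 had an unadjusted p under 0.05, against 3742 at 24 h. DESeq2 called 76 higher and 49 lower at 48 h, and without the filter on low counts 171 were higher and 151 lower. On the fourth principal component of all CF libraries, the ENPP1+ATP libraries at 48 h stood far apart, with scores of -34.5 and 59.0. The median log2 fold change of the 465 genes higher at 24 h was 0.34 at that time and 0.03 at 48 h, and for the 653 lower genes it was -0.27 and 0.02. The 24 h medians are set by the choice of these genes. The test of the change itself, 48 h difference minus 24 h difference, called 345 genes upward (1.93%) and 162 downward (0.906%). Of the immediate early genes, p53 arrest targets, collagens and matrix glycoproteins, 0 were called at 48 h by edgeR. At an unadjusted p under 0.05, 6 immediate early genes were higher and 0 lower, 1 p53 arrest target was higher and 2 lower, 8 collagens were higher and 1 lower, and 14 matrix glycoproteins were higher and 1 lower. DESeq2 called 1 immediate early gene, 1 collagen and 1 matrix glycoprotein, each higher, and 0 of the p53 arrest targets.

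For Egr1 and Fos the levels at 48 h were under those at 24 h in both media, above vehicle, and overlapped between the media. Egr1 was at 104 and 139 CPM with AMP and 124 and 122 CPM with ENPP1+ATP MCndM, vehicle being at 72.4 and 87.0 CPM, and the difference between the media had changed by -1.14 ± 0.25 on the log2 scale from 24 h (adjusted p = 0.040). Fos was at 11.6 and 13.6 CPM against 11.8 and 10.3 CPM, with 3.46 and 3.97 CPM in vehicle (change -0.84 ± 0.18, adjusted p = 0.016). Mdm2 had higher levels at 48 h, 973 and 1037 CPM with AMP and 982 and 1025 CPM with ENPP1+ATP MCndM, and the groups overlapped at this higher level (difference at 48 h 0.00 ± 0.07; change -0.40 ± 0.09, adjusted p = 0.023). Col3a1 was at 867 and 731 CPM against 729.9 and 754 CPM, both below vehicle at 2078 and 1914 CPM, and its difference at 48 h was 0.11 ± 0.07 (change 0.96 ± 0.09, adjusted p = 4.78e-06). Adamts5, at 412 and 359 CPM against 372 and 354 CPM, also had overlapping groups (change 0.90 ± 0.08, adjusted p = 6.25e-07), as did Timp1 at 83.8 and 89.6 CPM against 85.0 and 92.7 CPM (change -0.59 ± 0.10, adjusted p = 0.0049). With ENPP1 alone Fos was at 3.06 and 3.22 CPM at 24 h and with ATP alone at 5.05 and 4.98 CPM, and Adamts5 was at 526 and 525 CPM with ENPP1 and 406 and 408 CPM with ATP MCndM.

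**Figure D4:**
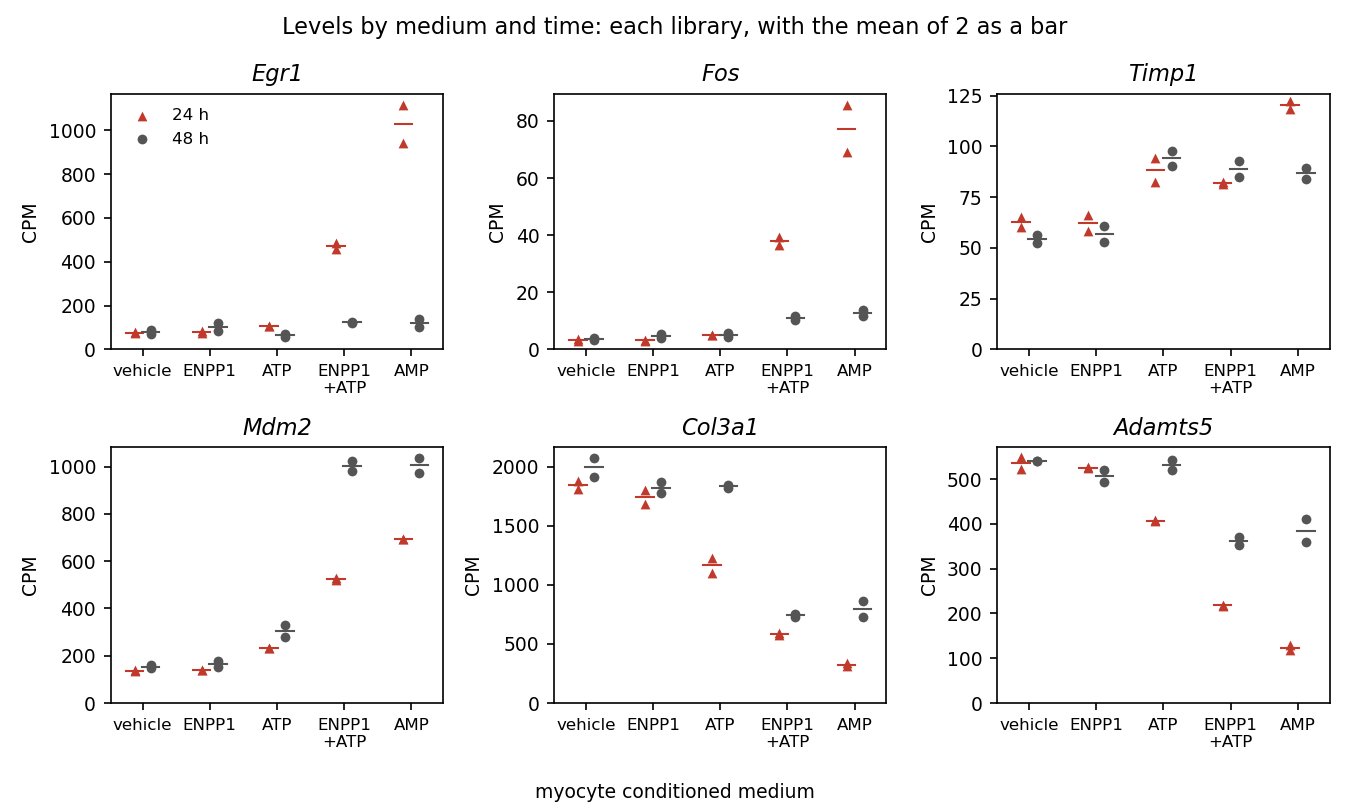
Levels in CPM of Egr1, Fos, Timp1, Mdm2, Col3a1 and Adamts5 in CFs given each of the 5 MCndM for 24 h (red triangles) or 48 h (gray circles), with each library as a symbol and the mean of 2 libraries as a bar, on axes that start at 0. At 24 h AMP lies beyond ENPP1+ATP in all 6 panels, and at 48 h their ranges overlap in all 6.

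**Figure D5:**
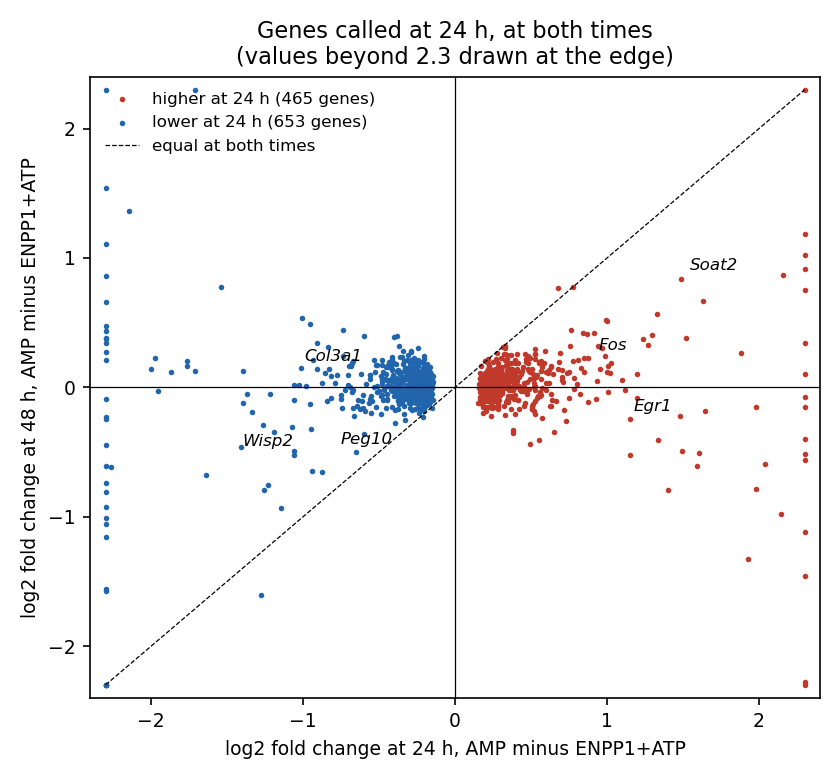
Each point is a gene called at 24 h, with its log2 fold change (AMP minus ENPP1+ATP MCndM) at 24 h on the x axis and at 48 h on the y axis, and the dashed line marks equal differences. Most genes lie near 0 on the y axis, and 1103 of the 1118 had a smaller absolute difference at 48 h. The genes were chosen for their 24 h difference, so this count follows in part from the choice.

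Genes called at both times were Peg10 and Gm44171, both lower, and Idh2, which reversed. Gm44171 differed by -1.28 at 24 h (adjusted p = 0.023), a call lost with the 4 compared libraries fitted alone (adjusted p = 0.23). Peg10, an imprinted gene derived from a retrotransposon, was at 131 and 128 CPM against 178 and 163 CPM at 24 h and 169 and 150.5 CPM against 199.97 and 188 CPM at 48 h, with vehicle above both at 292 and 302 CPM and 222 and 225 CPM. Its log2 fold change was -0.40 ± 0.06 (adjusted p = 0.00020) and then -0.28 ± 0.06 (adjusted p = 0.047). Idh2, the mitochondrial isocitrate dehydrogenase, was singled out after its values were seen, with log2 fold changes of -0.29 ± 0.05 at 24 h (adjusted p = 0.0010) and 0.27 ± 0.05 at 48 h (adjusted p = 0.029). Enpp1 differed at 48 h more than at 24 h, at 6.56 and 5.69 CPM with AMP and 9.89 and 9.04 CPM with ENPP1+ATP MCndM. That difference did not pass at 48 h (-0.63 ± 0.15, adjusted p = 0.070), while its change between the times did (-0.78 ± 0.20, adjusted p = 0.034). The counts at 48 h ranged from 1 to 71 genes higher and from 0 to 36 lower when each 48 h library was left out, being lowest without either AMP library and highest without either ENPP1+ATP library.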

How the data were processed

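For the CFs, the authors deposited a table of raw read counts, whole numbers per gene without normalization. The labels' processing notes name STAR 2.5.3a and mm10, and the counting program and annotation are not given in the sources used here. The number of unused columns of per-sample values is 0. Of 30892 genes, 17879 passed edgeR's filterByExpr and were tested in R 4.3.3 with edgeR 4.0.16, using TMM factors and a robust quasi-likelihood fit of all 20 CF libraries with 1 mean per medium and time. The Benjamini-Hochberg adjustment covered every gene tested, with a threshold of 0.05, and standard errors come from the test statistic. CPM values use TMM-scaled library sizes. Fold changes are AMP over ENPP1+ATP MCndM. Replicates were checked not to be the same library (chi-square per degree of freedom of 6.34 to 36.5).

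Members and lists were chosen with earlier results of these data known. Genes were named by a rule: up to 12 per direction with the largest differences (mean log2 CPM of at least 2, no overlap), up to 3 per direction and list, 10 genes of the study, and genes called at both times or changing most between them. A further 27 genes (mostly list members printed with only a log2 fold change, and Idh2) were named after their values were seen. A result that the naming rule would include is not reported here. The fit was also run on simulated counts, and the outcome is not reported here. Alternatives were DESeq2 1.42.0, RLE factors, no filter, the compared libraries alone, a replicate block and leaving out each library. There were 2 libraries per medium, and how far the spread between replicates or the depth limits the precision was not tested.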

Additional observations from a re-analysis of the deposited data

Results flagged for a closer look

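Over all genes tested, 1.93% changed upward and 0.906% downward between 24 h and 48 h. For 61 of the 145 named genes the AMP minus ENPP1+ATP difference itself changed between 24 h and 48 h in edgeR's test of the change (adjusted p under 0.05). Most named genes were chosen for their 24 h difference, or for changing most with time, so this count follows in part from the choice and is a description. Of these, 60 were called at 24 h and 0 at 48 h. The values that follow are the 48 h minus the 24 h difference on the log2 scale. The change was downward for 26 genes. Among transcription factors and immediate early genes it was -1.14 for Egr1, -0.99 for Fosb, -0.84 for Fos, -0.62 for Atf3, -0.38 for Myc and -0.25 for Cyr61. Among stress genes and p53 genes it was -0.77 for Cebpb, -0.46 for Ppp1r15a, -0.45 for Ddit3, -0.40 for Mdm2 and -0.27 for Trp53. Among secreted and surface proteins it was -1.02 for Lcn2, -0.99 for Plaur, -0.93 for Ccl5, -0.84 for Cd68, -0.59 for Timp1 and -0.54 for Igfbp4. For enzymes and other genes it was -0.78 for Enpp1, -0.45 for Ada, -0.42 for Dctd, -0.33 for Fbl, -0.38 for Xaf1, -0.31 for Pdlim7, -0.31 for Tgif1, -0.995 for Lrrc39 and -1.74 for 1700120C14Rik.

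The change was upward for 35 genes, all 35 of which were lower with AMP MCndM at 24 h. Among ECM genes and their enzymes it was 0.96 for Col3a1, 0.62 for Col11a1, 0.97 for Wisp2, 1.54 for Fmod, 0.51 for Postn, 0.90 for Adamts5, 0.42 for Adamts2 and 0.38 for Timp3. Among receptors, ligands and their partners it was 0.70 for Fzd2, 0.50 for Fzd1, 0.37 for Sfrp2, 0.80 for Pdgfra, 0.56 for Jag1, 0.38 for Cdon, 0.61 for Bmp4, 1.31 for Bmp3, 0.40 for Fstl1, 0.43 for Cxcl12 and 0.72 for Mme. For metabolic genes it was 0.36 for Fasn, 0.33 for Scd2, 0.29 for Acly, 0.30 for Cpt1a, 0.36 for Pfkm, 0.31 for Bnip3l and 0.44 for Sdhc. For the remaining genes it was 0.32 for Rpa1, 0.49 for Gins1, 0.48 for Cdkn2c, 0.24 for Sec24d, 0.26 for Cnn2, 0.69 for Afap1l2, 0.87 for Prss23, 0.97 for Slc24a3 and 1.18 for Kbtbd11.

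Of the 27 genes named after their values were seen, 19 had such a change. All 27 were called at 24 h, so this count is a description as well. It was downward for 5, with -0.79 for Fosl1, -0.63 for Ier2, -0.51 for Ier3, -0.41 for Jun and -0.28 for Plk2. It was upward for 14, with 0.24 for Sparc, 0.27 for Lamb2, 0.27 for Col1a1, 0.31 for Lrp6, 0.33 for Fbn1, 0.45 for Hspg2, 0.45 for Col12a1, 0.46 for Lama5, 0.48 for Nid2, 0.49 for Col1a2, 0.51 for Emilin1, 0.55 for Col16a1, 0.56 for Idh2 and 0.60 for Col4a5.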

How the results depend on the processing

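The counts at 24 h (465 higher, 653 lower) stayed within 1.5 times under DESeq2, RLE factors and no filter, and were 206 and 176 when the 4 libraries were fitted alone. Leaving out each replicate gave 92 to 389 genes higher and 163 to 794 lower at 24 h, 1 to 71 and 0 to 36 at 48 h, and 144 to 635 and 47 to 223 for the change between times. At 48 h (16 and 13) the counts were 76 and 49 by DESeq2, 171 and 151 without the filter and 1 and 1 with the libraries of the comparison alone. For the change between times (345 and 162) they were 531 and 353 without the filter and 31 and 33 with the 8 libraries alone. The cause of these shifts was not tested, though fits with fewer libraries have fewer degrees of freedom. Replicate numbers name samples without stating a shared batch. At 24 h the deviations of replicate 1 from the mean of its medium correlated at 0.142 between AMP and ENPP1+ATP MCndM, over 10882 genes. With 2 libraries per medium, replicate 2 mirrors replicate 1 and adds no further pair. With the replicate block 553 genes were higher and 768 lower at 24 h, 19 and 15 at 48 h, and 457 and 235 for the change. Of 136 named genes called at 24 h, 38 were called in every alternative, DESeq2 and the block ended 0 of the calls (Lef1 had no adjusted p in DESeq2), RLE factors 2, no filter 3, and the 4 libraries alone 53. Leaving out replicate 1 of ENPP1+ATP MCndM ended 91, and leaving out each other library 44 or 45. Without the filter, list counts that moved by over 1.5 times included ribosomal proteins (8 to 14 higher), cytokines (7 to 11 higher), senescence (7 to 11 higher), TGF-beta and BMP (4 to 7 higher), metalloproteinases and TIMPs (4 to 7 lower), cross-linking enzymes (3 to 5 lower) and interferon-stimulated genes (2 to 14 higher). Among the 27 genes named after their values were seen, Lama5 lost its call with the replicate block (adjusted p = 0.061) and with RLE factors (0.051). No called difference changed sign, which leaving out a library could hardly bring about, since the groups of every called gene did not overlap.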
